A study of Mus musculus with 148 samples.

Results

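Immune cells from the invasive margin of breast cancer lung metastases were compared with immune cells from distal lung tissue of the same animals in which no metastasis was seen. The comparison covers every mouse with plates of status MET Invasive margin, namely mice 17, 26, 28, 31, 32, 33 and 36, and each of these 7 mice also had plates of status Distal normal tissue. The margin gave 1863 annotated immune cells on 12 plates and the distal tissue gave 2250 on 13 plates, together 4113 of the 23425 immune cells in the atlas, 25 of its 148 plates and 7 of its 27 mice.

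The invasive margin is the rim where a growing metastasis meets lung tissue. Macrophages there differ in origin and state: alveolar macrophages live in the airspaces and clear surfactant, whereas macrophages that express the lipid receptor TREM2 and the glycoprotein GPNMB take up lipids and debris and are studied as suppressive cells in tumors. Naive T cells recirculate through the lung in large numbers, while antigen-experienced CD8 T cells carry cytotoxic granules and, after prolonged stimulation, inhibitory receptors such as LAG3. Neutrophils and monocytes reach the lung from the blood and bone marrow.

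All 7 animals were female C57BL/6 mice that carried a photoactivatable GFP transgene. They received EO771 breast cancer cells labelled with tdTomato in the mammary gland at 8 weeks of age, the primary tumor was resected 3 weeks later, and the lungs were perfused and collected after CT showed metastases, so the distal tissue also came from metastasis-bearing animals. The margin was marked by photoactivation under the microscope and its cells were sorted as CD31-negative and GFP-positive without a CD45 gate, whereas distal cells were sorted as CD31-negative and CD45-positive. The gate and the tissue therefore cannot be told apart in this comparison. Metastasis core of 6 of these mice was sorted on GFP as the margin was (1 of the 6, mouse 17, on GFP and CD45) and whole metastasis sections of 6 were sorted on CD45 as the distal tissue was, and both are given beside the main values without a test. The photoactivation target of the margin plates of mouse 17 is labelled NON-MET, while the other 6 carry the margin label.

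The 7 margin samples held 55 to 851 immune cells (median 159) and the 7 distal samples 74 to 752 (median 251). Summed unique molecular identifiers (UMIs) ranged from 52088 to 1882909 per margin sample and from 59327 to 2345414 per distal sample. The median UMI count per cell was 745 to 1563 at the margin and 682 to 2743.5 in distal tissue, and the within-mouse difference was not detectable (exact sign-flip p = 0.734). Cells annotated as Tumor or Outlier, which were kept out of the immune total, made up 1.96% of annotated cells at the margin and 0.403% in distal tissue on average, higher at the margin in 6 of 7 mice (exact sign-flip p = 0.0781). Margin samples of mice 32 and 33 stood apart, with macrophages as 63.6% and 59.1% of their immune cells against 2.12% to 5.56% in the other 5, so results that lean on these mice are given with and without them, the latter without both. In relapse-free lungs of 2 further mice, where GFP-positive and GFP-negative cells of the same organ were both sorted, the macrophage share was 3.17% with GFP and 5% without it in mouse 6, and 2.12% and 2.04% in mouse 7. T cells were 51.8% and 50% in mouse 6, and 51.0% and 44.2% in mouse 7. GFP-positive neutrophils there were 3.52% and 8.65% in mice 6 and 7, against 3.18% and 10.7% among GFP-negative cells. Other plates of mice 6 and 7 were sorted on CD45 alone, as the distal tissue was. On that gate macrophages were 7.69% and 5.75%, and T cells 46.9% and 29.6%. Monocytes were 18.2% and 26.1% on it, against 19.0% and 15.2% among GFP-positive cells. Neutrophils were lower on it than among GFP-positive cells in both mice. The difference between these gates was not tested.

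The shares of immune cells taken by 2 macrophage subpopulations differed between the tissues. Mac Gpnmb cells, which the study calls regulatory macrophages or Mregs, were 148 of the 185 macrophages at the margin and 9 of the 66 in distal tissue. Mac Cd9 cells, the alveolar macrophages, were 9 of 185 at the margin and 43 of 66 in distal tissue. Mice 32 and 33 held 114 of the 148 margin Mac Gpnmb cells, and in the 5 other mice Mac Gpnmb was 34 of 56 margin and 7 of 43 distal macrophages and Mac Cd9 6 of 56 and 24 of 43. As a share of all immune cells Mac Gpnmb was higher at the margin in 7 of 7 mice, with 17.7% ± 26.5 against 0.573% ± 0.541 (mean ± SD, n = 7; exact sign-flip p = 0.0156, the smallest this design can give; adjusted p = 0.135 over 26 subpopulations). Without mice 32 and 33 the share was 2.30% ± 1.19 against 0.272% ± 0.207, higher in 5 of 5 mice (n = 5; exact sign-flip p = 0.0625, the smallest possible with 5), and the mean difference fell from 17.1 to 2.02 percentage points. Of those 26 shares of immune cells 23.1% passed the unadjusted threshold of 0.05.

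Single mice differed widely in this rise. The share of Mac Gpnmb among immune cells at the margin was 0.685% in mouse 28, 3.14% at the median and 61.8% in mouse 32, with mouse 33 at 50.3%. The distal share lay between 0% in mouse 31 and 1.35% in mouse 32, with a median of 0.398%. The groups overlapped, because the margin of mouse 28 held a single Mac Gpnmb cell among 146 immune cells and fell below the distal values of mice 32 and 33. Within single mice the margin value was above the distal value in all 7, although for mouse 28 the 2 values rest on 1 cell each.

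Among macrophages alone the fraction could be compared in only 5 mice, since the distal tissue of mouse 31 held 1 macrophage and that of mouse 36 held 4. In those 5 mice the Mac Gpnmb fraction was 68.1% ± 30.9 at the margin and 14.5% ± 14.3 in distal tissue, higher in 5 of 5 (exact sign-flip p = 0.0625, the smallest possible with 5 mice; adjusted p = 0.325). The margin fractions were 16.7% in mouse 28, 66.7% in mouse 17, 75% in mouse 26, 85.1% in mouse 33 and 97.1% in mouse 32. The distal fractions were 6.67%, 40%, 7.69%, 7.14% and 11.1% in the same order. The pair of mouse 28 lay closest, with 1 of 6 margin and 1 of 15 distal macrophages. The edgeR test on cell numbers, which also took mice 31 and 36, passed for both Mac Gpnmb (log2 fold change 2.28; unadjusted p = 0.0179) and Mac Cd9 (-3.19; unadjusted p = 0.00142). Without mice 32 and 33 the Mac Gpnmb difference was 34.7 percentage points, higher in 3 of 3 mice (exact sign-flip p = 0.25, the smallest possible with 3). In mice 31 and 36, which had no usable distal macrophages, Mac Gpnmb was 50% and 68.8% of margin macrophages.

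The Mac Cd9 fraction was 67.2% ± 21.7 of distal macrophages and 14.2% ± 20.5 of margin macrophages, lower in 5 of 5 mice (exact sign-flip p = 0.0625; adjusted p = 0.325). As a share of immune cells it fell from 4.77% to 0.754%, lower in 6 of 7 mice with mouse 36 at 0 in both tissues (exact sign-flip p = 0.0312; adjusted p = 0.163). Without mice 32 and 33 the difference in the fraction was -34.8 percentage points, lower in 3 of 3 mice (exact sign-flip p = 0.25), and the share of immune cells was 0.678% against 1.67%, lower in 4 of 5 mice (exact sign-flip p = 0.125), so that call was lost. The remaining macrophage groups, Mac Cd81 and Mac Isg20, which the study describes as tumor-associated, did not separate the tissues. Mac Cd81 was 9.48% at the margin and 10.6% in distal tissue (exact sign-flip p = 0.813) and Mac Isg20 8.16% and 7.63% (exact sign-flip p = 0.875).

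**Figure D1:**
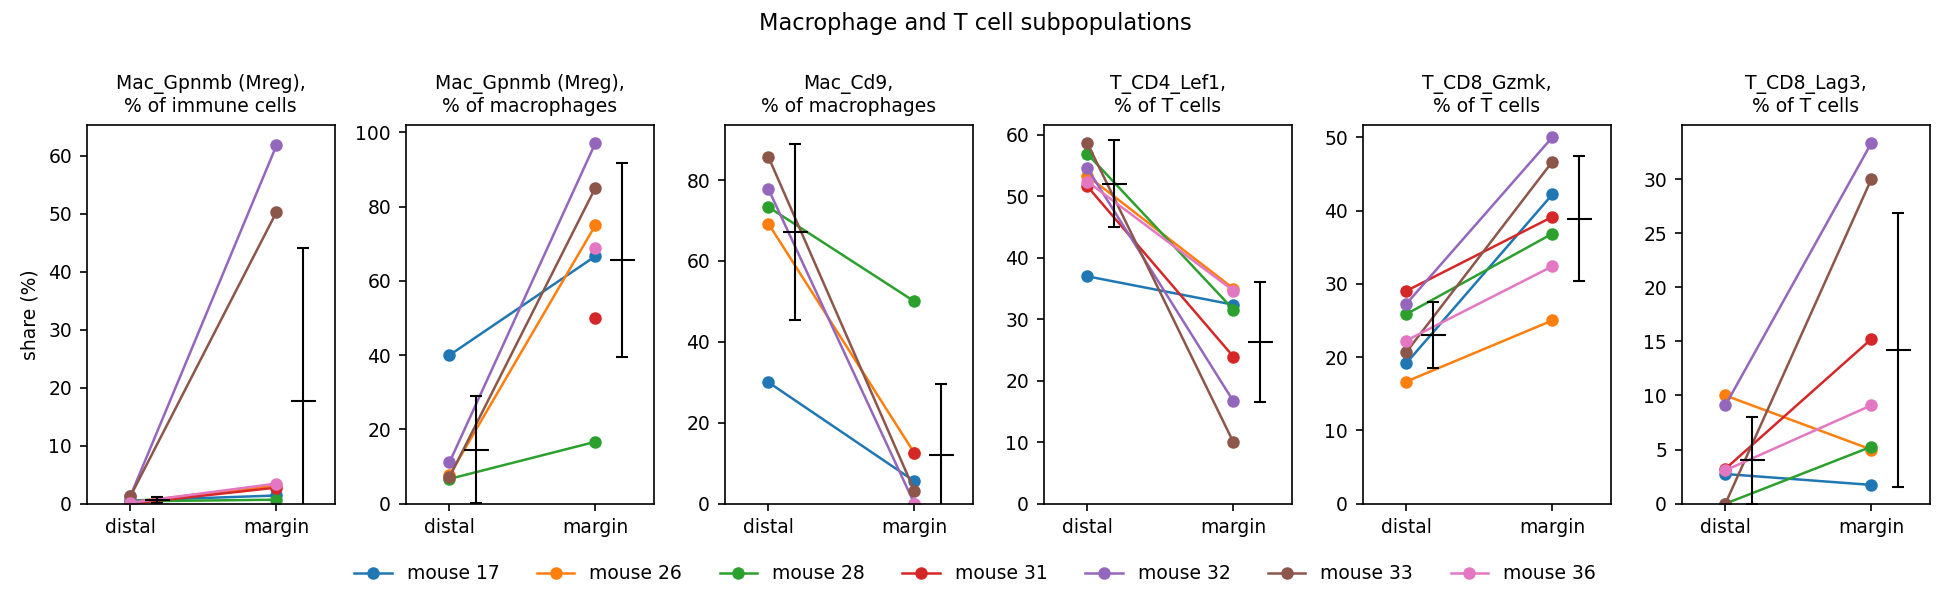
Shares of macrophage and T cell subpopulations in distal normal lung and invasive margin, in percent of immune cells (first panel), of macrophages or of T cells; each coloured point is 1 mouse, lines join the tissues of a mouse, and black marks give the mean ± SD over the points drawn, with lower bars clipped at 0. Mice 31 and 36 had under 5 distal macrophages and, in the panels of macrophage fractions, appear only at the margin; every joined line rises for Mac_Gpnmb and T_CD8_Gzmk and falls for Mac_Cd9 and T_CD4_Lef1.

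The names of the 2 main macrophage subpopulations matched the genes they stand for. Pooled Mac Gpnmb cells of the margin held 2422 CPM of Gpnmb (UMIs of a gene scaled to a total of 1000000), 594 of the lipid receptor Trem2, 15483 of the lipid carrier Apoe and 10592 of the lysosomal protease Ctsd. Pooled distal Mac Cd9 cells held 102 CPM of Gpnmb and 17.0 of Apoe, but 16316 of Chil3, a chitinase-like protein made by alveolar macrophages, and 3018 of the tetraspanin Cd9. These subpopulations were defined on the same cells, so the values check the names and are not separate findings.

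Set beside the other sampled regions of the same mice, the margin had the highest mean Mac Gpnmb fraction among macrophages, 65.6% over 7 mice. Whole metastasis sections followed with 35.0% over 6 mice, then the core with 28.0% over 5 and distal tissue with 14.5% over 5. The margin range of 16.7% to 97.1% overlapped the core range of 8.33% to 58.6%, and the core overlapped both whole sections, at 26.2% to 44.0%, and distal tissue, at 6.67% to 40%, so the order of the means does not separate neighbouring regions. Mouse 31 had 58.6% in the core and 50% at the margin, against the direction of the means. Mouse 32 had no macrophage among 77 core immune cells, which allows a share of up to 3.90%, while 35 of its 55 margin cells and 84 of the 584 cells of its whole section were macrophages. Mac Cd9 cells were 0 of 221 macrophages in the core and 30 of 363 in whole sections.

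**Figure D2:**
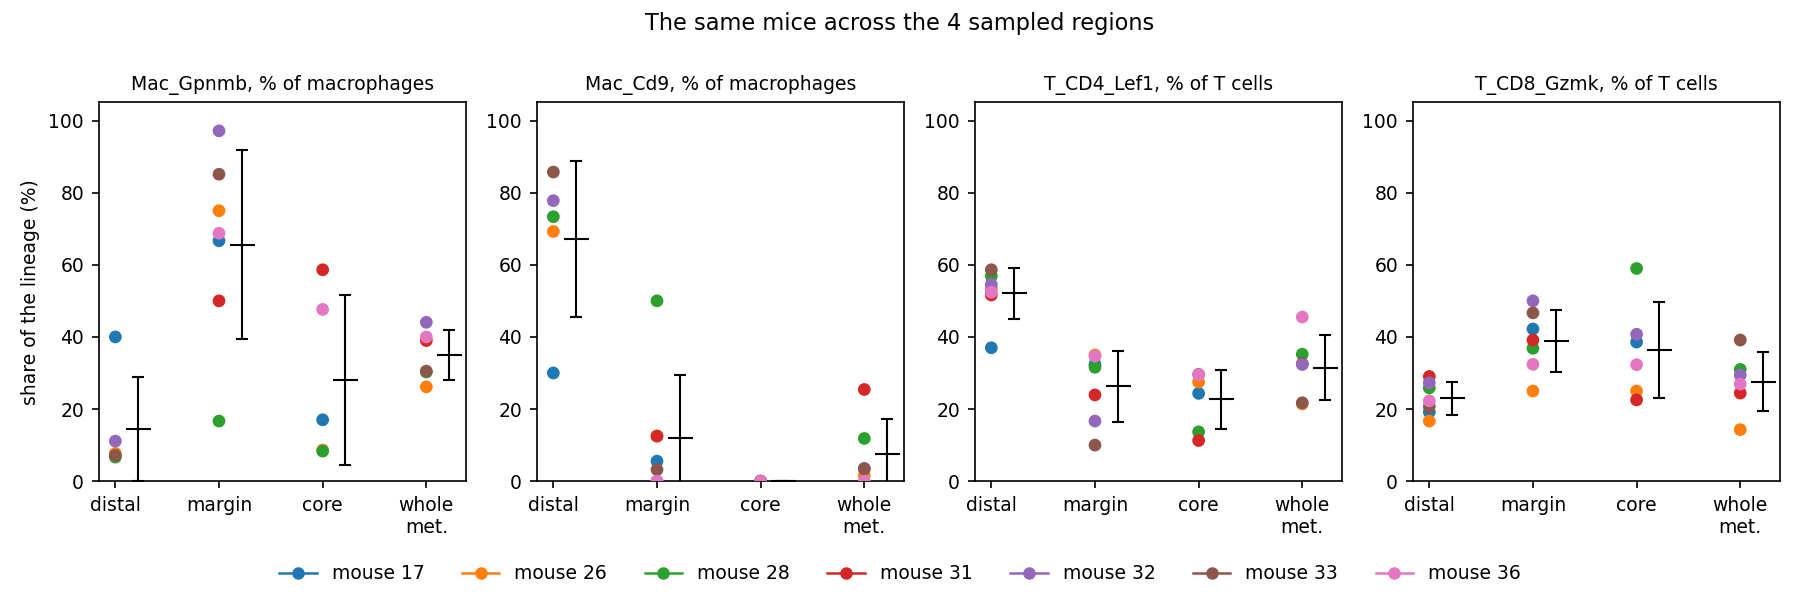
Share of the lineage taken by 4 subpopulations in distal tissue, margin, core and whole metastasis of the same mice (y axis, percent of macrophages or of T cells); each point is 1 mouse with at least 5 cells of the lineage and black marks give mean ± SD. Mac_Gpnmb is highest on average at the margin, with overlap between regions, and T_CD4_Lef1 is highest in distal tissue.

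Counted over all immune cells, the macrophage lineage as a whole was 6.13% ± 6.67 in distal tissue and 20.5% ± 27.9 at the margin, higher in 6 of 7 mice without passing the test (n = 7; exact sign-flip p = 0.0781; adjusted p = 0.182 over 7 lineages), although the edgeR test on cell numbers passed (log2 fold change 1.32; unadjusted p = 0.00341), as did cells of at least 1000 UMIs alone (exact sign-flip p = 0.0469). In margin samples the macrophage share was 2.12%, 5.05% and 63.6% at the lowest, the median and the highest, and in distal samples 0.627%, 3.55% and 18.2%. Mice 32 and 33 carried most of the mean difference, which fell from 14.4 to 1.69 percentage points in the 5 other mice, higher in 4 of them. Mice 32 and 33 were also the animals with the highest distal macrophage shares, 12.2% and 18.2%.

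Of the 7 lineages 1 passed the unadjusted threshold, or 14.3%. Neutrophils, the short-lived granulocytes, were lower at the margin in 7 of 7 mice, with 16.5% ± 19.1 against 22.1% ± 22.7 (n = 7; exact sign-flip p = 0.0156; adjusted p = 0.109). The mice differed far more from each other than the tissues of a mouse did. Mouse 17 went from 54.9% in distal tissue to 40.3% at the margin and mouse 26 from 54.6% to 47.1%, while mice 32 and 33 went from 2.70% and 3.90% to 0 of 55 cells, which allows up to 5.45%, and to 0.629%. In mice 28, 31 and 36 the distal shares of 12.4%, 11.96% and 14.3% compared with 10.3%, 8.33% and 8.83% at the margin. Without the pairing by mouse, the same samples gave a permutation p of 0.588, so the call rests on the within-mouse differences. The call was also lost with cells of at least 1000 UMIs alone (7 mice; exact sign-flip p = 0.0625), in the edgeR test on cell numbers (unadjusted p = 0.0787) and without mice 32 and 33, where 5 of 5 mice were lower (exact sign-flip p = 0.0625).

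Monocytes, the blood-derived precursors of many tissue macrophages, were 20.6% ± 9.60 of margin and 34.1% ± 14.2 of distal immune cells, lower in 6 of 7 mice (n = 7; exact sign-flip p = 0.0625; adjusted p = 0.182), while the edgeR test on cell numbers passed (log2 fold change -0.64; unadjusted p = 0.0346), as did cells of at least 1000 UMIs alone (exact sign-flip p = 0.0312). Mouse 26 was the exception, with 34.6% at the margin and 28.1% in distal tissue. In the 5 mice other than 32 and 33 the mean difference was -5.59 percentage points, lower in 4 of 5 mice (exact sign-flip p = 0.25), against -13.6 over all 7. Natural killer (NK) cells were 11.0% ± 6.46 and 7.23% ± 3.64, higher at the margin in 6 of 7 mice (n = 7; exact sign-flip p = 0.109; adjusted p = 0.191). T cells took 26.7% ± 16.5 at the margin and 24.7% ± 14.7 in distal tissue (n = 7; exact sign-flip p = 0.672). Without mice 32 and 33 the T cell difference was 7.37 percentage points, higher in 4 of 5 mice (exact sign-flip p = 0.125). Dendritic cells were 2.57% and 3.30% (exact sign-flip p = 0.281) and B cells 2.10% and 2.37% (exact sign-flip p = 0.75). In the core and in whole sections (6 mice each) monocytes averaged 21.7% and 36.6%, and NK cells 14.5% and 5.64%. T cells averaged 37.1% and 15.8% there, macrophages 12.4% and 16.4%, and neutrophils 7.95% and 17.0%. Dendritic cells averaged 5.30% and 5.01%, and B cells 1.01% and 3.54%. The part of the sort gate in these shares was not tested.

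Shares of a whole depend on each other, and in mice 32 and 33 macrophages filled most of the margin total. With macrophages left out of the total, an alternative chosen after seeing the data, T cells were 34.4% of margin and 26.6% of distal cells and NK cells 14.7% and 7.65%, each higher in 6 of 7 mice (exact sign-flip p = 0.0469 for both). Neutrophils kept their direction on this total, at 17.2% and 22.8%, lower in 7 of 7 mice (exact sign-flip p = 0.0156).

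**Figure D3:**
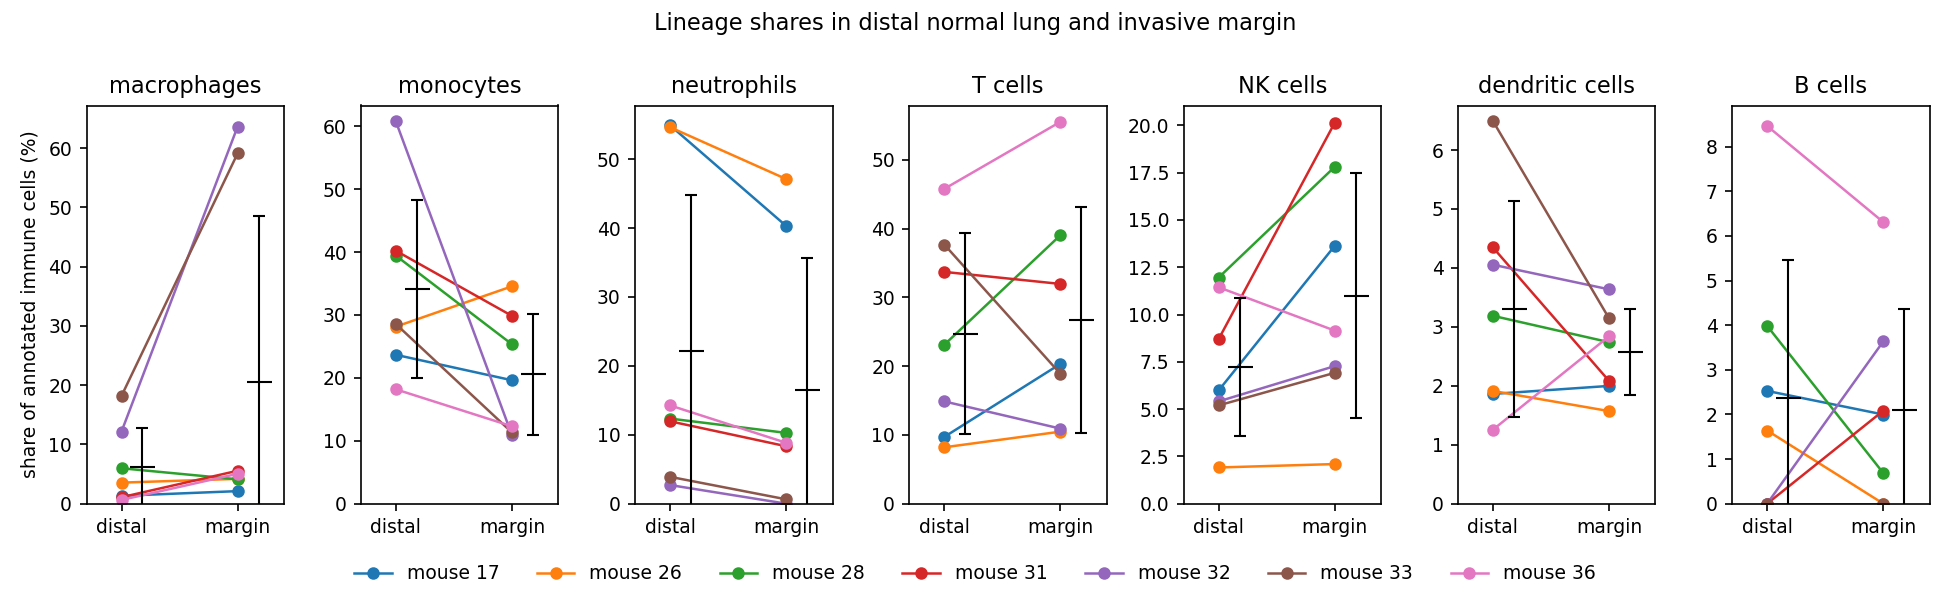
Share of 7 lineages among annotated immune cells (y axis, percent, scaled per panel) in distal normal lung and invasive margin; coloured points joined by lines are the 7 mice and black marks give mean ± SD with lower bars clipped at 0. Neutrophil lines fall in all 7 mice, and mice 32 and 33 leave the other macrophage lines at the margin.

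Relative to distal tissue, the T cell compartment of the margin held a smaller fraction of naive-annotated CD4 Lef1 and a larger fraction of activated-annotated CD8 Gzmk cells. The other naive and activated groups, CD8 Dapl1 and CD8 Gzma, did not pass the test. CD4 Lef1 cells, annotated as naive CD4 T cells and named after the transcription factor LEF1, made up 26.3% ± 9.79 of margin and 52.1% ± 7.09 of distal T cells, lower in 7 of 7 mice (n = 7; exact sign-flip p = 0.0156; adjusted p = 0.203 over 26 subpopulations). At the margin the fraction was 10% at the lowest in mouse 33, 31.6% at the median and 35% at the highest in mouse 26. In distal tissue it was 37.0% in mouse 17, 53.3% at the median and 58.6% in mouse 33, so the groups did not overlap. In the core and in whole sections of the same mice CD4 Lef1 averaged 22.7% and 31.5% of T cells (6 mice each, not tested). Of the 26 fractions of a lineage 7.69% passed the unadjusted threshold, namely CD4 Lef1 and CD8 Gzmk.

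CD8 Gzmk cells, activated CD8 T cells named after granzyme K, rose from 23.0% ± 4.54 of distal to 38.9% ± 8.51 of margin T cells, higher in 7 of 7 mice (n = 7; exact sign-flip p = 0.0156; adjusted p = 0.203). The margin fractions ran from 25% in mouse 26 through a median of 39.1% to 50% in mouse 32, where they rest on 3 of 6 cells. The distal fractions ran from 16.7% through 22.3% to 29.0%, overlapping the margin only at the value of mouse 26. The mean fraction was 36.4% in the core and 27.5% in whole sections (6 mice each, not tested). As a share of all immune cells CD8 Gzmk was also higher at the margin in 7 of 7 mice, 10.0% against 5.86% (exact sign-flip p = 0.0156; adjusted p = 0.135). CD4 Lef1 did not pass on that total, at 7.59% against 13.2%, lower in 6 of 7 mice (exact sign-flip p = 0.0781; adjusted p = 0.222). The 2 subpopulations share their denominator, so the fall of one and the rise of the other are not independent. In the 5 mice other than 32 and 33 the differences were 12.5 percentage points for CD8 Gzmk and fell by 18.7 percentage points for CD4 Lef1, in the same direction in 5 of 5 (exact sign-flip p = 0.0625 for both, the smallest possible with 5). With cells of at least 1000 UMIs alone, which left 3 mice, neither passed, with differences of 12.2 for CD8 Gzmk and -12.5 for CD4 Lef1 (exact sign-flip p = 0.5 for both, where 0.25 is the smallest possible).

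The CD4 Lef1 name holds more than CD4 cells. A UMI of Cd8a or Cd8b1, the CD8 coreceptor chains, was found in 28.7% of its margin cells and 32.1% of its distal cells, and a UMI of Cd4 in 13.4% and 14.2%. Among neutrophils, which should lack both, 3.27% and 2.66% of cells had a CD8 UMI and 0.613% and 0% a Cd4 UMI, at median depths of 1063 and 1010 UMIs against 956 and 1411 in CD4 Lef1. CD8 Gzmk cells had a CD8 UMI in 39.3% and 47.9%. The CD4 Lef1 fraction is therefore read here as naive-annotated T cells and not as the CD4 lineage. Gzmk itself was rare in CD8 Gzmk cells, at 68.0 ± 78.5 CPM at the margin and 53.4 ± 66.0 in distal tissue (n = 6). These levels rest on 29 and 27 UMIs, higher in 2 and lower in 2 mice, and were not tested. The CD8 Gzmk fraction is likewise read as an annotation and not as a level of granzyme K.

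CD8 Lag3 cells, annotated as dysfunctional, were 14.2% ± 12.7 of margin and 4.02% ± 4.02 of distal T cells, higher in 5 of 7 mice (n = 7; exact sign-flip p = 0.0781; adjusted p = 0.339). The largest margin values, 33.3% and 30%, came from mice 32 and 33 and rest on 2 of 6 and 9 of 30 cells. Without them the difference was 3.45 percentage points, higher in 3 of 5 mice (exact sign-flip p = 0.313), against 10.2 over all 7. Over all immune cells CD8 Lag3 was 3.16% and 0.705%, higher in 6 of 7 mice (exact sign-flip p = 0.0469), and without mice 32 and 33 2.57% and 0.717%, higher in 4 of 5 (exact sign-flip p = 0.188). Regulatory T cells, which carry the transcription factor FOXP3, were 21 of 508 margin T cells from 5 mice against 0 of 524 distal T cells of these animals, which allows up to 0.573%. Distal tissue of 7 other mice held 1 among 284 T cells. Mouse 36 gave 15 of the 21, and the fraction of 2.67% ± 2.95 was above the distal value in 5 of 7 mice (n = 7; exact sign-flip p = 0.0625; adjusted p = 0.325). The edgeR test on cell numbers passed for regulatory T cells (unadjusted p = 0.000143) and for CD8 Lag3 (unadjusted p = 0.0131). The 21 annotated cells held 15 UMIs of Foxp3, 13 of the checkpoint receptor Ctla4 and 136 of the costimulatory receptor Tnfrsf4. In the core and in whole sections of the same mice regulatory T cells were 45 of 883 and 19 of 452 T cells. CD4 S100a4, CD8 Dapl1 and CD8 Gzma fractions were 8.55% and 11.0%, 4.82% and 6.10%, and 4.52% and 3.83% at margin and in distal tissue, and their exact sign-flip p-values lay between 0.531 and 0.563.

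Ratios of cell numbers within a sample leave out the other cell types of the total. Because 1 cell is added to each side, ratios of small counts still depend on how many cells were captured. The log2 ratio of activated (CD8 Gzmk and CD8 Gzma) to naive (CD4 Lef1 and CD8 Dapl1) T cells, with 1 cell added to each side, rose from -1.03 in distal tissue to 0.44 at the margin. The within-mouse difference was 1.48 ± 0.78 (SD, n = 7), higher in 7 of 7 mice (exact sign-flip p = 0.0156; adjusted p = 0.0312 over 4 ratios). The lowest margin ratio, -0.51 in mouse 26, lay just above the highest distal ratio, -0.61 in mouse 17, so the groups did not overlap. Without mice 32 and 33 the difference was 1.07, again higher in 5 of 5 mice. The call was then lost (exact sign-flip p = 0.0625, the smallest possible with 5). The core and whole sections of the same mice had mean log2 ratios of 0.57 and -0.17 (6 mice each, not tested).

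The log2 ratio of neutrophils to lymphocytes fell from -1.04 to -2.01, a difference of -0.97 ± 0.39 (SD, n = 7), lower in 7 of 7 mice (exact sign-flip p = 0.0156; adjusted p = 0.0312). The groups overlapped widely, with margin ratios from -4.39 to 1.86 and distal ratios from -3.09 to 2.19, and without the pairing the permutation p was 0.421. With cells of at least 1000 UMIs alone the difference was -0.83 in 7 mice and no longer passed (exact sign-flip p = 0.172). The ratio of Mon Thbs1 to Mon Fn1 monocytes, -2.56 at the margin and -3.20 in distal tissue, was higher in 5 of 7 mice (exact sign-flip p = 0.0781). The myeloid to lymphoid ratio was 0.70 and 1.07, lower in 6 of 7 mice (exact sign-flip p = 0.234). Of the 4 ratios 50% passed the unadjusted threshold.

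**Figure D4:**
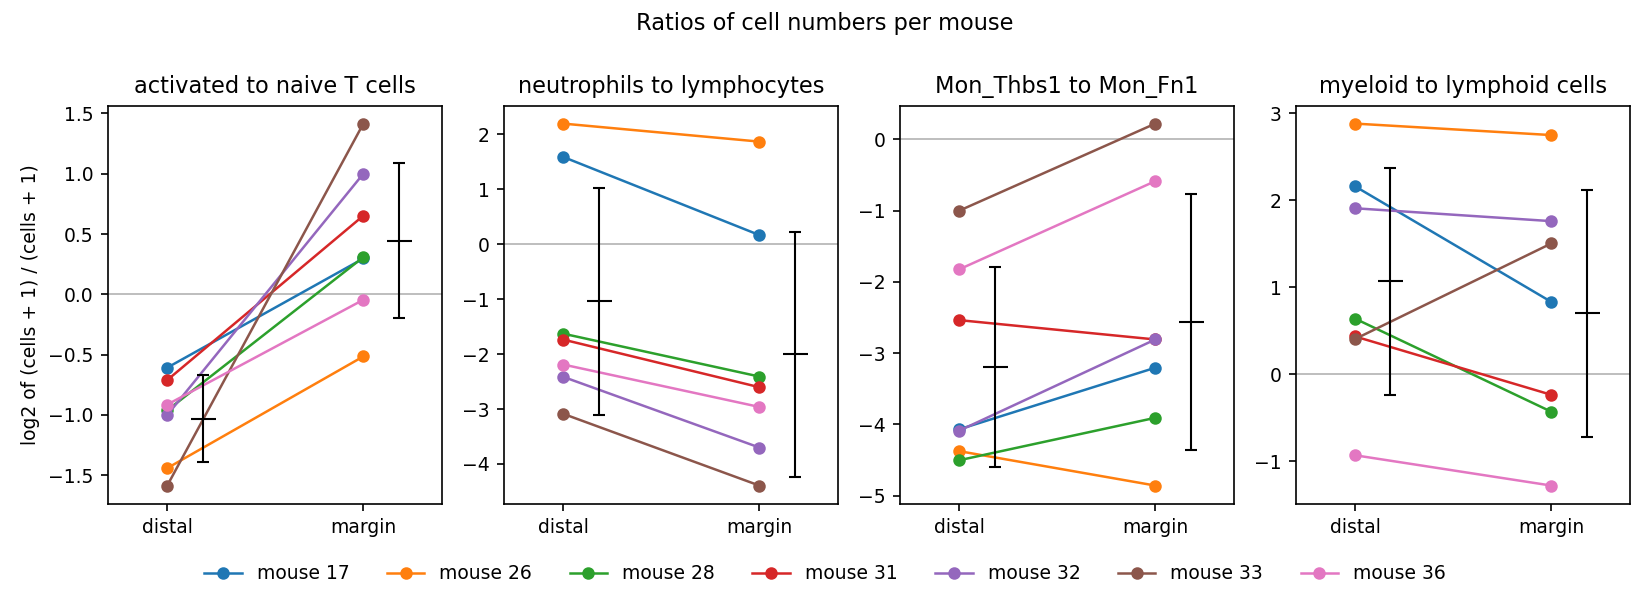
Log2 ratios of cell numbers (1 cell added to each side) in distal normal lung and invasive margin for 7 mice, with black marks at the mean ± SD. The activated to naive T cell ratio rises and the neutrophil to lymphocyte ratio falls in all 7 mice, and the margin and distal points overlap for the second and not for the first.

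Conventional type 2 dendritic cells, which present antigen to CD4 T cells, were 0.990% of margin and 1.70% of distal immune cells, lower in 7 of 7 mice (exact sign-flip p = 0.0156; adjusted p = 0.135), from 14 and 22 cells in all. Neut Lcn2 neutrophils, named after lipocalin 2, were 8.33% of margin and 11.8% of distal immune cells, lower in 6 of 7 mice with 0 higher (exact sign-flip p = 0.0312; adjusted p = 0.163). Both populations were lower in 5 of 5 mice without mice 32 and 33 (exact sign-flip p = 0.0625 for both). Fractions of the monocyte lineage did not pass the paired test, and those of neutrophils (5 mice) and NK cells (4 mice) could not pass it. Mon Fn1, fibronectin-expressing monocytes, were the main monocyte group in both tissues, at 65.7% of margin and 64.5% of distal monocytes (exact sign-flip p = 0.844). Mon Ace, which carry the patrolling monocyte marker ACE, were 13.3% and 21.0% (exact sign-flip p = 0.156), Mon MHC-II 11.0% and 7.95% and Mon Thbs1, named after thrombospondin, 10.0% and 6.63% (exact sign-flip p = 0.359 for both). In the core of the same mice 262 of 456 monocytes were Mon Thbs1, compared with 31 of 376 at the margin and 33 of 600 in distal tissue. Mouse 28 gave 183 of the 262 among 225 core monocytes, and without it the core held 79 of 231, or 34.2%, while the core fractions of 6 mice ran from 4.76% through a median of 34.5% to 81.3%. Among neutrophils of 5 mice Neut Lcn2 was 36.3% and 49.0% at margin and in distal tissue (exact sign-flip p = 0.125) and Neut Ptgs2, named after cyclooxygenase 2, 46.1% and 37.9% (exact sign-flip p = 0.313). The interferon-annotated Neut Ifit3 was 13.1% and 10.8% (exact sign-flip p = 0.125). Polymorphonuclear myeloid-derived suppressor cells were 8 of 489 margin and 2 of 751 distal neutrophils, all 8 from mouse 17 and both distal cells from mouse 26. NK Xcl1 cells were 10.0% and 3.53% of NK cells in the 4 mice with at least 5 NK cells in both tissues (exact sign-flip p = 0.25, where 0.125 is the smallest possible). They passed against distal tissue of all mice without pairing (exact permutation p = 0.00436). That comparison adds the margin of mouse 33, at 54.5% of 11 NK cells, which brings the margin mean to 18.9% over 5 mice.

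Expression was then compared within lineages, on UMIs summed per mouse and tissue with mouse as a block. A gene was called at a Benjamini-Hochberg adjusted p below 0.05 in the edgeR quasi-likelihood test. In a bulk sum of annotated cells a shift in subpopulations and a shift in RNA per cell cannot be told apart, so values within a subpopulation stand beside those of the lineage. Few genes were called. Of the genes tested 0% were called in monocytes (0 of 1372, 6 mice), neutrophils (0 of 585, 5 mice) and NK cells (0 of 1283, 3 mice), and 0.157% in T cells (1 of 637, 6 mice). At an unadjusted p under 0.05 edgeR gave 69, 13, 26 and 66 genes, or 5.03%, 2.22%, 2.03% and 10.4% of those tested, and DESeq2 called 0, 0, 0 and 1. Within single subpopulations edgeR called 0 of 1220 genes in Mon Fn1 (5 mice), 0 of 430 in CD4 Lef1 (4 mice) and 0 of 168 in CD8 Gzmk (6 mice), with 35, 20 and 11 genes, or 2.87%, 4.65% and 6.55%, at an unadjusted p under 0.05.

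The called gene was Ly6c2 in T cells. It encodes LY6C2, a surface protein of inflammatory monocytes that also marks antigen-experienced CD8 T cells, and lies on the minus strand of chromosome 15 at 75108158 to 75111970 in GRCm38. Ly6c2 took 596, 1134, 1391, 1429, 2684 and 1587 CPM of the margin T cell sums of mice 17, 26, 28, 31, 33 and 36. The distal sums of the same mice held 268, 417, 546, 602, 604 and 901 CPM. The 2 ranges overlapped only through mouse 17, whose margin value lay among the distal values, and the log2 fold change was 1.31 (SE 0.24; edgeR adjusted p = 0.00305; higher in 6 of 6 mice).

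The Ly6c2 difference within T cell subpopulations depended on whether cells were summed per mouse or pooled over mice. Within CD8 Gzmk cells, in a fit added after cell numbers were seen that took sums of at least 5 cells, Ly6c2 was 2673 ± 1259 CPM at the margin and 1275 ± 661 in distal tissue, a log2 fold change of 1.13 (SE 0.25; higher in 6 of 6 mice; edgeR unadjusted p = 0.00055 and adjusted p = 0.0922, so it was not called). Pooled over mice, margin and distal cells held 2009 and 1678 CPM in CD8 Gzmk, and 1509 and 899 in CD8 Dapl1. Pooled CD4 Lef1 cells held 453 and 455 CPM, CD8 Gzma 1226 and 1410, CD8 Lag3 493 and 533, and CD4 S100a4 52.8 and 59.4. Summed per mouse, CD4 Lef1 held 505 ± 305 and 212 ± 204 CPM, higher in 4 of 4 mice and too rare to test. Pooled levels weigh each mouse by its UMIs, which differ between the tissues, so they do not show whether subpopulations differ. The part of subpopulation fractions in the T cell difference was not tested. The 7 other monocyte markers summed to 0 to 217 CPM in margin T cells and 0 to 560 in distal T cells (medians 167 and 202, n = 6), with Ace the only one not detected at the margin. Levels in T cells of the core were 473 to 1575 CPM (median 1275) and in whole sections 731 to 1525. In relapse-free lungs GFP-positive T cells held 175 and 539 CPM and GFP-negative T cells 355 and 357. The call was lost without mouse 33 (edgeR adjusted p = 0.0638), without the pairing by mouse (edgeR adjusted p = 0.974) and when mouse 32 entered with 6 margin T cells (edgeR adjusted p = 0.0838), as well as with cells of at least 1000 UMIs alone, which left 3 mice (edgeR adjusted p = 1.00), and the log2 fold change lay between 0.84 and 1.60 over all settings tried.

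Among the other T cell genes with small p-values, chosen after their values were seen, 3 had higher values at the margin without passing the adjustment. Nkg7, a granule membrane protein, was 4001 ± 1081 and 2319 ± 1164 CPM, a log2 fold change of 0.85 (edgeR adjusted p = 0.110; higher in 5 of 6 mice). Ccl5, a chemokine of memory and effector T cells, was 8397 ± 2535 and 5406 ± 2747 CPM (log2 fold change 0.73; edgeR adjusted p = 0.119; 5 of 6 mice) and AW112010, an interferon-inducible transcript, 2430 ± 593 and 1243 ± 602 CPM (0.98; edgeR adjusted p = 0.0749; 6 of 6). Within CD8 Gzmk cells the log2 fold changes were 0.35 for Nkg7, 0.19 for Ccl5 and 0.44 for AW112010 (edgeR adjusted p between 0.769 and 0.864). Gzma, granzyme A, was 524 and 590 CPM in all T cells (log2 fold change -0.09; edgeR adjusted p = 0.966) and Lef1 195 and 280 CPM (-0.41; edgeR adjusted p = 0.769).

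Several T cell genes were too rare for the filter on low counts and had more UMIs at the margin. Penk, the enkephalin precursor, had 91 UMIs in margin T cells of 4 mice and 0 in distal T cells. Tnfrsf4, also known as OX40, had values above the distal tissue in 5 of 6 mice, 243 ± 169 CPM against 12.1 ± 19.7, and Tnfrsf9, also known as 4-1BB, 215 ± 146 against 19.9 ± 21.4. The chemokine genes Ccl4, at 493 ± 336 against 74.6 ± 63.8 CPM, and Ccl1, with 96 against 3 UMIs of which 60 came from mouse 31, followed the same direction. Without mouse 31 the Ccl1 level was 52.0 ± 61.7 against 4.87 ± 10.9 CPM. The subpopulations that held these UMIs differed. The margin's 21 regulatory T cells held 71 of the 91 Penk UMIs, 136 of Tnfrsf4 and 60 of Tnfrsf9, whereas the 39 CD8 Lag3 cells held 208 UMIs of Ccl4 and 63 of Ccl1. With regulatory T cells left out, Tnfrsf4 was 46.5 ± 37.2 against 12.1 ± 19.7 CPM, higher in 4 of 6 mice, Penk 66.6 ± 118 against 0, and Tnfrsf9 156 ± 179 against 19.9 ± 21.4, higher in 5 of 6. Within CD8 Gzmk cells the pooled levels at margin and in distal tissue were 7.19 and 3.24 CPM of Tnfrsf4, 39.5 and 16.2 of Tnfrsf9 and 165 and 90.7 of Ccl4. With no filter these 5 genes, Isg20, Ccl5 and Ly6c2 made up the 8 called T cell genes, all higher at the margin. Gzmk itself was 82.6 and 24.7 CPM, higher in 4 of 6 mice (60.1 and 29.7 without mouse 33), and Lag3 57.6 and 11.8 CPM, higher in 3 of 6, and neither was tested.

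Ly6c2 is on the list of monocyte markers, where it was the only member tested, and no pathway list held a called T cell gene. The median log2 fold change over all 637 tested genes was -0.05. Of 37 listed type I interferon response genes 4 were tested and 0 called, all 4 with fitted values above 0 and a median of 0.53, led by Ly6a at 1.02 (edgeR unadjusted p = 0.0055) and Ifi27l2a at 0.79 (edgeR unadjusted p = 0.0144). All 4 tested glycolysis genes, Eno1, Pkm, Aldoa and Ldha, also had fitted values above 0, with a median of 0.71 and 0 calls. Naive and memory T cell genes had a median of -0.19, with 6 of 8 below 0, among them Ccr7 at -0.49 and Il7r at -0.47. Within CD4 Lef1 cells the naive and memory genes had a median of 0.16, with 7 of 10 above 0, and the interferon genes a median of 0.35, with 3 of 4 above 0.

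**Figure D5:**
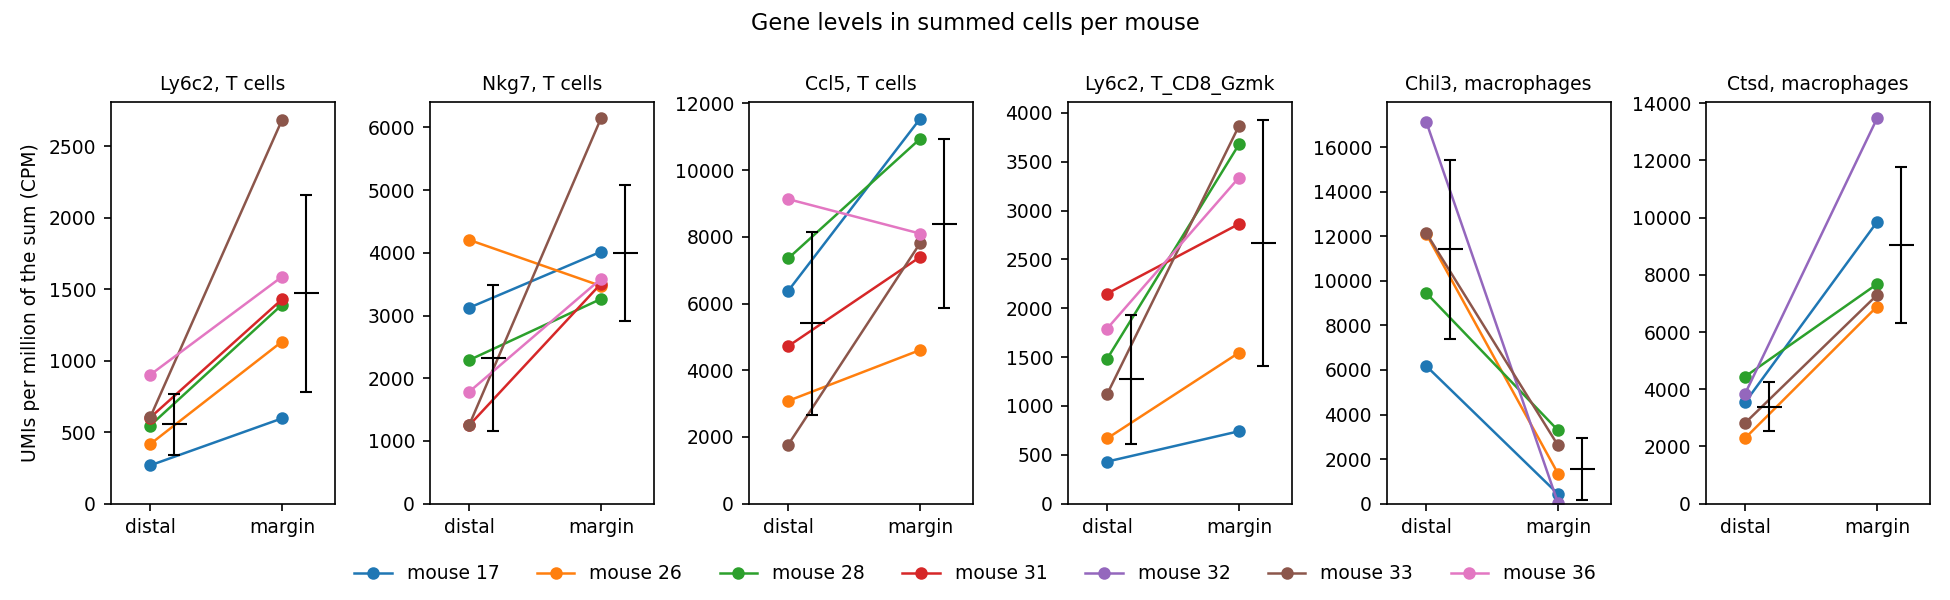
Levels of 5 genes in sums over T cells, CD8 Gzmk cells or macrophages per mouse (y axis, CPM, scaled per panel) in distal normal lung and invasive margin; lines join the tissues of a mouse and black marks give mean ± SD. Ly6c2 rises in 6 of 6 mice in both T cell sums, Chil3 falls and Ctsd rises in 5 of 5.

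Macrophage sums of at least 5 cells could be formed in 5 mice, a fit added after cell numbers were seen. Of 260 genes tested 0% were called by edgeR, with 38, or 14.6%, at an unadjusted p under 0.05, while DESeq2 called 10. No macrophage subpopulation reached 5 cells in both tissues of a mouse, so none had a fit of its own. Chil3 took 11407 ± 4034 CPM in distal and 1543 ± 1393 CPM in margin macrophages, with distal values of 6180 to 17143 and margin values of 27.4 to 3290 that did not overlap (log2 fold change -3.53, SE 0.75; edgeR adjusted p = 0.106; lower in 5 of 5 mice). It was called by DESeq2 (adjusted p = 8.24e-06) and in edgeR without the pairing, against all distal mice, with cells of at least 1000 UMIs and without mouse 28, 32 or 33 (edgeR adjusted p between 0.000744 and 0.0445). The 10 genes that DESeq2 called were Chil3, Ctsd, Apoe, Cd63, Fn1, Wfdc17, Abcg1, Sirpa, Lpl and Atp6v0d2. Ctsd, the lysosomal protease cathepsin D, was 9036 ± 2729 at the margin and 3390 ± 848 in distal tissue, again without overlap (1.29, SE 0.33; edgeR adjusted p = 0.106; higher in 5 of 5).

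The same direction was seen for the lipid carrier Apoe (log2 fold change 2.30; higher in 4 of 5 mice), the tetraspanin Cd63 (2.04; 5 of 5), fibronectin Fn1 (2.18; 5 of 5), the secreted inhibitor Wfdc17 (1.98; 4 of 5) and the glycolytic enzyme Eno1 (1.84; 5 of 5), with edgeR adjusted p between 0.106 and 0.230. Genes with lower values at the margin were the cholesterol exporter Abcg1 (-2.28), the inhibitory receptor Sirpa (-1.92), lipoprotein lipase Lpl (-1.95) and the proton pump subunit Atp6v0d2 (-1.81), with edgeR adjusted p between 0.106 and 0.205. Gpnmb was fitted at 1.98 (higher in 3 of 5 mice; edgeR adjusted p = 0.230) and Trem2 at 0.68 (4 of 5; edgeR adjusted p = 0.638). All 3 tested members of the class I antigen presentation list, H2-D1, H2-K1 and B2m, had fitted values above 0, with a median of 1.02 against 0.04 over all genes, and 0 were called. Platelet markers summed to a median of 357 CPM in margin and 0 in distal macrophages, with Gp9, Itga2b and Gp1bb at 0 in both; their part in these values was not tested.

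No monocyte gene passed the adjustment. The smallest p-values belonged to Gm42418 (log2 fold change -0.55; edgeR adjusted p = 0.151), Gm26917 (-0.64; edgeR adjusted p = 0.169) and AY036118 (-0.68; edgeR adjusted p = 0.369), each lower at the margin in 5 of 6 mice. These 3 transcripts lie together on chromosome 17 between 39843013 and 39848788 in GRCm38, AY036118 is antisense within Gm42418, and reads of this locus are known to come from ribosomal RNA, so the 3 are not separate measurements. In neutrophils Gm42418, also the gene with the smallest p, stood at 4766 ± 5161 CPM at the margin and 10508 ± 5168 in distal tissue (-1.40; edgeR adjusted p = 0.406; lower in 4 of 5 mice), and Gm42418 was fitted at -0.68 in T cells (edgeR adjusted p = 0.110; lower in 5 of 6). Gm42418 was called in monocytes under 6 other settings, with no filter on low counts, with sums of at least 20 or at least 5 cells, with cells of at least 1000 UMIs and without mouse 28 or mouse 33 (edgeR adjusted p between 2.51e-07 and 0.0445), and in neutrophils with no filter or without mouse 26 (edgeR adjusted p = 0.0151 for the latter). Gm26917 was called in monocytes with no filter and with cells of at least 1000 UMIs, and both Gm26917 and AY036118 in neutrophils with no filter. Gm42418 levels in monocytes of the core were 2338 to 10835 CPM and in those of relapse-free lungs 5311 and 7508 in GFP-positive and 4168 and 8910 in GFP-negative cells.

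Among monocyte genes with higher fitted values at the margin in 6 of 6 mice were the interferon-inducible Ifi209 (507 ± 252 and 275 ± 80.1 CPM; log2 fold change 0.85; edgeR adjusted p = 0.727), the stress-responsive transcription factor Atf3 (0.65) and the calcium-binding Efhd2 (0.77), the last 2 with an edgeR adjusted p of 0.783. Of 37 type I interferon response genes 14 were tested and 0 called, 12 with fitted values above 0 and a median of 0.17, against -0.02 over all 1372 genes. The highest were Zbp1, Rtp4 and Irf7, with log2 fold changes of 0.68, 0.68 and 0.66 and edgeR unadjusted p of 0.0194, 0.0197 and 0.0290. Within Mon Fn1 cells 12 interferon genes were tested and 0 called, 4 with fitted values above 0 and a median of -0.0133 against -0.0310 over all 1220 genes, and Zbp1, Rtp4 and Irf7 were at 0.36, 0.56 and -0.26. Rsad2, an antiviral gene too rare to test, was 274 ± 454 and 46.9 ± 41.3 CPM, higher in 6 of 6 mice. Mouse 36 had 1177 CPM at the margin, and without it the levels were 92.8 ± 113 and 46.4 ± 46.2 CPM (n = 5).

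Genes that the study follows in monocytes did not pass the test or were too rare for it. Fn1 was 939 and 961 CPM, the chemokine receptor Ccr2 735 and 735, and the chemokines Ccl6 2272 and 2161 and Ccl9 704 and 684, with log2 fold changes between -0.12 and 0.07 and an edgeR adjusted p of 0.999 each. Thbs1 was 379 ± 273 and 553 ± 257 CPM (-0.64; edgeR adjusted p = 0.972; lower in 4 of 6). Trem2 was 87.6 and 50.03 CPM, Gpnmb 3.74 and 3.71 and Cd63 38.4 and 14.8 in monocytes, all under the filter. Without mouse 33 Trem2 was 61.1 and 47.8 CPM and Cd63 16.7 and 17.7, so the direction of Cd63 turned. Arg1, arginase 1, had 204 ± 475 CPM at the margin and 2.37 ± 3.75 in distal tissue, and without mouse 33, whose margin held 1173 CPM from 16 UMIs, 10.4 ± 23.2 and 2.84 ± 3.99. Isg20 was 139 and 65.3 CPM, higher at the margin in 4 of 6 mice, and 98.9 and 67.4 without mouse 36. Ccl2 was 222 and 122 CPM, higher in 3 of 6, and 155 and 143 without mouse 36. Ccr1 was 111 and 88.3 CPM, higher in 4 of 6, and 105 and 97.0 without mouse 31. None of these was tested.

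No neutrophil gene passed the adjustment either. The chemokine Cxcl2 (log2 fold change 0.05), its receptor Cxcr2 (0.10), Ccr1 (-0.02), Ifit3 (-0.16), Lcn2 (-0.04) and the granule protein Ngp (-0.20) all had an edgeR adjusted p of 0.993 or more, and Ptgs2 was 700 ± 515 and 1075 ± 1021 CPM (-0.57; edgeR unadjusted p = 0.0564). The chemokine receptor Cxcr4, at 86.9 and 128 CPM, and 109 in both tissues without mouse 28, was too rare to test. Slfn2, Cdkn2d, Vamp8 and H3f3b had higher values at the margin in 5 of 5 mice, with log2 fold changes of 0.63, 0.72, 0.68 and 0.50 and an edgeR adjusted p of 0.993. The transcription factor gene Jun had a larger fitted change, 1.59 (edgeR unadjusted p = 0.00284 and adjusted p = 0.554; higher in 4 of 5). In monocytes Jun was fitted at 0.79 (edgeR adjusted p = 0.783; higher in 5 of 6). Of 11 immediate early and heat shock genes tested in neutrophils 6 were fitted above 0 and 5 below. Of 14 tested granule genes 12 had fitted values below 0, with a median of -0.11 against -0.04 over all genes, and all 5 glycolysis genes were below 0 with a median of -0.30, none called.

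NK cells could be compared in 3 mice, 17, 28 and 36. Gzma was 11527 ± 2051 and 13311 ± 1934 CPM (log2 fold change -0.24), the activating receptor Ncr1 1017 ± 73.5 and 995 ± 360 (0.03), the chemokine Xcl1 1072 ± 1002 and 543 ± 201 (0.68) and Ccl5 29467 ± 5750 and 31900 ± 7176 (-0.13), each with an edgeR adjusted p of 0.998. Without mouse 36 the log2 fold changes of Xcl1 and Ccl5 turned to -0.44 and 0.10, and that of Ncr1 turned to -0.17 without mouse 28. NK receptor and maturation genes had a median of -0.26, with 13 of 18 below 0, among them the late maturation genes Itgam at -0.88 and Zeb2 at -0.79, both lower in 3 of 3 mice. The 5 above 0 included Eomes at 0.98, higher in 3 of 3 mice, Klrb1c at 0.52 and Klra7 at 0.35. Klrg1 was close to 0, at -0.005. The 4 tested genes of the checkpoint and dysfunction list, Tnfrsf9, Tigit, Bhlhe40 and Nr4a2, were all fitted above 0 with a median of 0.54. The inhibitory receptor gene Tigit was higher at the margin in 1 of 3 mice, and the other 3 genes in 2 of 3. Cytotoxic granule genes had a median of -0.03. No gene of these lists was called, and the median over all 1283 genes was -0.02.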

How the data were processed

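Single cells were sorted into plates and profiled by SPID-seq, a plate-based 3′ method with UMIs. The authors demultiplexed reads with bcl2fastq 2.15.0.4, per the labels, aligned them to mm10, counted UMIs per gene and well, and annotated cells of at least 500 UMIs; the deposited values are raw UMI counts per gene and well. Dead cells and doublets were gated out at the sort, and no well identifier was found on more than 1 plate (0 shared). Spike-in rows were removed, which left 52542 genes. Erythrocytes, Tumor and Outlier cells were left out of the immune total.

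Plates of a mouse and tissue were pooled. Shares and log2 ratios were compared by an exact two-sided sign-flip permutation test of the mean within-mouse difference, which cannot go below 0.0156 with 7 mice, 0.0625 with 5 or 0.125 with 4; subpopulation fractions needed at least 5 cells of the lineage in both tissues. Expression was tested on summed UMIs (at least 10 cells per sum) with the edgeR 4.0.16 quasi-likelihood test, TMM, filterByExpr and mouse as a block, in R 4.3.3, with Benjamini-Hochberg adjustment, and recomputed with DESeq2 1.42.0. The test was also run on simulated counts with large changes and no differences between mice, so its power for smaller changes was not checked. CPM are UMIs scaled to 1000000 in the sum. Intervals and limits for a count of 0 (3 cells) cover counting error only. The members of the comparison and the gene lists were chosen with earlier results of these data known. Named genes were called genes that moved the same way in every mouse with a mean CPM of at least 50 (up to 8 each way), called list members, genes the study discusses, and the leading genes by p, which were chosen after their values were seen. The comparisons without mice 32 and 33 and without macrophages in the total, the pooled numbers and levels of rare genes without single mice or without regulatory T cells, and the macrophage and CD8 Gzmk fits, were added after seeing the data. Margin and distal plates of each mouse shared a sequencing batch, so the fit within batches equals the paired one.

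Same-mouse margin and distal samples deviated together from their group means in subpopulation shares (mean correlation 0.470, lowest 0.0884 in 7 mice, against -0.0650 between different mice), and they come from the same animal, which is the source of the pairing.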

Additional observations from a re-analysis of the deposited data

Results flagged for a closer look

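Of 54 groups of shares examined for a sample far from the others, 6 had one, and chance alone gives about 1 in 20. At the margin mouse 28 had the highest Mac Cd9 fraction, 50% (3 of 6 macrophages), and mouse 36 the highest regulatory T cell fraction, 8.52% (15 of 176 T cells). Mouse 33 had the lowest NK Ncr1 fraction, 45.5%, and with it the highest NK Xcl1 fraction, 54.5%, from 11 NK cells. In distal tissue mouse 17 had the highest Mac Gpnmb fraction, 40% (4 of 10 macrophages), and the lowest CD4 Lef1 fraction, 37.0%. Outside the immune annotation, cells labelled Tumor or Outlier were on average 1.96% of annotated margin cells, above the distal 0.403%, from 28 and 6 cells.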

How the results depend on the processing

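With no replicate block CD4 Lef1, CD8 Gzmk and the activated to naive ratio kept their calls, the neutrophil share, the neutrophil ratio and Ly6c2 lost theirs, and Mac Cd9, Mac Gpnmb and regulatory T cells gained one. The neutrophil share stayed at -5.61 percentage points (exact permutation p = 0.588) and the neutrophil to lymphocyte log2 ratio at -0.97 (exact permutation p = 0.421), while Mac Cd9 and Mac Gpnmb among macrophages, over all mice with at least 5 macrophages, gave -55.2 and 51.1 percentage points and regulatory T cells 2.67 (exact permutation p = 0.00253, 0.00631 and 0.0210); without the pairing 0 T cell genes and 1 macrophage gene were called. Against all distal mice without pairing the differences were -16.4 for monocytes (call gained, exact permutation p = 0.0183), -4.50 for neutrophils (lost, 0.676), -53.6 for Mac Cd9 (gained, 0.00175), 49.5 for Mac Gpnmb (gained, 0.00233), -3.01 for Mon Fn1, -15.6 for NK Ncr1 and 15.6 for NK Xcl1 (both gained, 0.00436), 11.8 for CD8 Lag3 (gained, 0.00234), 2.55 for regulatory T cells (gained, 0.00193) and -0.86 for the neutrophil ratio (lost, 0.377), with 0 T cell genes and 9 macrophage genes called.

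With macrophages left out of the total, the differences were 0.656 for B cells, 0.565 for dendritic cells, 7.00 for NK cells and 7.84 for T cells (both gained, exact sign-flip p = 0.0469). As shares of all immune cells they were -4.01 for Mac Cd9 (call gained, exact sign-flip p = 0.0312), 17.1 for Mac Gpnmb (gained, 0.0156), -8.46 for Mon Fn1, -0.673 for Mon MHC-II, -0.479 for Mon Thbs1, 2.55 for NK Ncr1, -0.512 for Neut Ifit3, -3.43 for Neut Lcn2 (gained, 0.0312), -1.81 for Neut Ptgs2, -5.64 for CD4 Lef1 (call lost, exact sign-flip p = 0.0781) and 2.46 for CD8 Lag3 (gained, 0.0469). With cells of at least 1000 UMIs alone they were 1.82 for dendritic cells, 20.6 for macrophages (call gained, exact sign-flip p = 0.0469), -20.7 for monocytes (gained, 0.0312), -4.61 for neutrophils (call lost, exact sign-flip p = 0.0625 in 7 mice), 0.0634 for Mon Ace, -3.07 for Mon Fn1, -2.19 for Neut Ifit3, 0.396 for Neut Lcn2, -2.58 for Neut Ptgs2, -12.5 for CD4 Lef1, -7.71 for CD8 Gzma and 12.2 for CD8 Gzmk (both CD4 Lef1 and CD8 Gzmk lost the call, exact sign-flip p = 0.5 in 3 mice), the neutrophil ratio was -0.83 (call lost, exact sign-flip p = 0.172 in 7 mice) and the myeloid to lymphoid ratio 0.0084; the T cell and neutrophil fractions then rest on 3 mice. The edgeR test on cell numbers gave log2 fold changes of 1.32 for macrophages (call gained, unadjusted p = 0.00341), -0.64 for monocytes (gained, 0.0346), -0.53 for neutrophils (call lost, unadjusted p = 0.0787), -3.19 for Mac Cd9 (gained, 0.00142), 2.28 for Mac Gpnmb (gained, 0.0179), -0.0528 for Mon Fn1, -0.0512 for Neut Ptgs2, -0.29 for CD8 Gzma, 1.58 for CD8 Lag3 (gained, 0.0131) and 5.07 for regulatory T cells (gained, 0.000143). With at least 10 cells of the lineage Mon Fn1 was -2.95. Without mice 32 and 33 the differences were -6.65 for neutrophils, -18.7 for CD4 Lef1, 12.5 for CD8 Gzmk, 1.07 for the activated to naive ratio and -0.83 for the neutrophil ratio (each lost, exact sign-flip p = 0.0625) and -2.73 for Mon Fn1. The cause of these changes was not tested, except that fewer mice raise the smallest possible p.

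Called genes numbered 2 in monocytes, 3 in neutrophils, 8 in T cells and 1 in macrophages with no filter on low counts. Sums of at least 20 cells gave 1 monocyte gene, sums of at least 5 cells 1 monocyte and 0 T cell genes, and cells of at least 1000 UMIs 2 monocyte, 2 T cell, 1 NK cell and 1 macrophage gene. Cells thinned to 500 UMIs gave 5 T cell genes and DESeq2 10 macrophage genes.

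The following log2 fold changes of genes changed sign, none of them called. In monocytes Ccl6 was -0.0633 with no filter and -0.0466 thinned, Ccl9 -0.0642 against all distal mice, -0.11 with no filter, -0.0495 with 20 cells and -0.29 with 1000 UMIs, and Ccr2 -0.0066 against all distal mice and -0.0923 with no filter. In neutrophils Cxcl2 was -0.20 with no filter, -0.22 with 1000 UMIs and -0.0684 thinned, Cxcr2 -0.10 with no filter and -0.21 with 20 cells, Ccr1 0.0889 against all distal mice, 0.14 with 20 cells, 0.19 with 1000 UMIs and 0.0089 thinned, Ifit3 0.27 without the block, 0.58 against all distal mice and 0.26 with 1000 UMIs, and Lcn2 0.22 without the block, 0.15 against all distal mice, 0.20 with 1000 UMIs and 0.21 thinned. In T cells Gzma was 0.13 against all distal mice and thinned, 0.00097 with DESeq2 and 0.0085 with 5 cells, and Ccl5 -0.34 with 1000 UMIs. In NK cells Ncr1 was -0.0297 without the block, -0.14 with 1000 UMIs and -0.29 thinned, and Trem2 in macrophages was -0.32 with 1000 UMIs.

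Leaving out 1 mouse at a time gave differences of -0.923 to 0.233 percentage points for B cells, 8.23 to 17.1 for macrophages, -16.9 to -7.54 for monocytes, 2.50 to 4.79 for NK cells, -0.309 to 5.48 for T cells and -2.95 to 3.64 for Mon Fn1, and -0.62 to -0.21 for the log2 myeloid to lymphoid ratio. Without mouse 32 the macrophage difference was 8.23 and the monocyte difference -7.54. Calls gained by leaving out 1 mouse included macrophages without mouse 28, monocytes without mouse 26 and NK cells without mouse 36. The myeloid to lymphoid ratio gained one without mouse 33. In each case the mouse left out was the only one against the direction of the others. Called genes numbered 0 to 1 in monocytes, 0 to 2 in neutrophils (2 without mouse 26), 0 to 11 in T cells (8 without mouse 17, 11 without mouse 26 and 0 without mouse 33), 0 to 1 in NK cells, Mon Fn1 and CD4 Lef1, and 0 to 11 in macrophages (11 without mouse 28). Log2 fold changes whose sign depended on 1 mouse ran from -0.27 to 0.13 for Fn1, -3.58e-05 to 0.16 for Ccl6, -0.14 to 0.16 for Ccl9 and -0.00406 to 0.15 for Ccr2 in monocytes. In neutrophils they ran from -0.0269 to 0.13 for Cxcl2, -0.0553 to 0.26 for Cxcr2, -0.19 to 0.18 for Ccr1, -0.28 to 0.00715 for Ifit3, -0.89 to 0.43 for Ngp and -0.20 to 0.23 for Lcn2. Those of Gzma in T cells ran from -0.20 to 0.13, and in NK cells those of Ncr1 from -0.17 to 0.28, Xcl1 from -0.44 to 1.69 and Ccl5 from -0.35 to 0.10. Nkg7 within CD8 Gzmk cells ran from -0.0353 to 0.69.

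The blocked fits within CD8 Gzmk, Mon Fn1 and CD4 Lef1 made 0 calls and so did those without the block. Of the alternative values of shares, ratios and call counts, 380 kept direction and call, 15 lost a call, 28 gained one, 27 changed direction and 30 moved by more than 1.5 times. The macrophage, neutrophil and NK gene tests rest on sums from 3 to 5 mice, and counts of 0 in the smallest margin samples allow shares of several percent.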
